A study of Mus musculus with 24 samples.

Results

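The comparison asked whether removal of the adrenal glands changed the night-day difference in messenger RNA of the cochlea in mice that heard no noise. It used 12 of the 24 libraries of the series, those of the 4 groups with sham exposure, and all genes: 16607 of the 23420 entries of the count table passed the filter on low counts and were tested. Each group held 3 libraries, a to c. The quantity compared is the time by surgery interaction, the night minus day difference in adrenalectomized (ADX) mice minus the night minus day difference in sham-operated mice, on the log2 scale.

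All mice were CBA/Sca, aged 12 weeks, and RNA came from whole cochlea. The 4 groups were day sham exposure sham-operated, night sham exposure sham-operated, day sham exposure ADX and night sham exposure ADX. The other 12 libraries came from mice with the same surgeries and times that heard noise instead, in a band from 6 to 12 kHz and 100 dB loud. The study's purpose, per its design text, was to examine how glucocorticoids bear on auditory function by time of day. The sources differ on the times. The sample labels give zeitgeber time (ZT, hours after lights-on) 11 for day and 23 for night, whereas the design text gives exposure from ZT 3 or ZT 15 for 1 h and collection 2 h later. The groups are therefore called day and night here. Adrenalectomy removes the source of glucocorticoids and also of mineralocorticoid and adrenaline, and whether hormone or salt was replaced is not given in the sources used here. The labels do not say that libraries of a group came from separate animals, so the p-values measure the spread between these samples, which may be technical.

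Cells of the cochlea, like most cells, carry a molecular clock. CLOCK or NPAS2 pairs with BMAL1 (gene Arntl) and drives genes for its own repressors, the PER and CRY proteins, and for REV-ERB alpha (gene Nr1d1). REV-ERB alpha in turn represses Arntl and Npas2. Glucocorticoid, which the adrenal cortex secretes with a daily rhythm, is a time cue for clocks outside the brain and induces genes such as Fkbp5 and Tsc22d3 through its receptor.

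In the sham exposure libraries the total ran from 18894996 counts in day sham-operated a to 32600253 in night ADX a. The 10 most counted genes took 3.36% to 4.28% of a library. Defining markers of the cochlea were present in every library of the 4 groups: the summed level of the 14 hair cell markers ran from 437 to 545 CPM (counts scaled to a common library size with edgeR's TMM factors) and that of the 9 spiral ligament fibrocyte markers from 5650 to 8570 CPM, with no member at 0. Day sham-operated b stood apart in cerebellar genes, with a summed level of 416 CPM against 254 and 264 CPM in the other libraries of its group. Night minus day in sham-operated mice and the interaction are therefore also given without it where this moved a result.

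The promoters of 4 clock genes are printed. Nr1d1, Npas2 and Cry1 had the smallest unadjusted interaction p-values among the clock genes matched in the sequence table. Per3 was added as a clock gene called in a comparison within the interaction. The choice was not exhaustive, since Dbp was also called in such a comparison and is not printed. Each runs 5′ to 3′ over 300 bases and ends 50 bases after the start site, from RefSeq on GRCm38.p6. The windows are chr11:98775328-98775627 on the minus strand for Nr1d1, chr1:39194022-39194321 on the plus strand for Npas2, chr10:85185005-85185304 on the minus strand for Cry1 and chr4:151044616-151044915 on the minus strand for Per3. Capitals mark matches, on either strand, to the E-box CACGTG or its variant CACGTT, which CLOCK and BMAL1 bind, or to the D-box TTANGTAA, which DBP and TEF bind.
Nr1d1: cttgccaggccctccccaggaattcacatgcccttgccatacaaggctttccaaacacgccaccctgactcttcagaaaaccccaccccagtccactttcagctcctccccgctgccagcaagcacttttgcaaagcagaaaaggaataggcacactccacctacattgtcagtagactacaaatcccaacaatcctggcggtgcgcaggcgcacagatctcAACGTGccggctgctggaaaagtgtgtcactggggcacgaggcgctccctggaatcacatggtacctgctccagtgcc
Npas2: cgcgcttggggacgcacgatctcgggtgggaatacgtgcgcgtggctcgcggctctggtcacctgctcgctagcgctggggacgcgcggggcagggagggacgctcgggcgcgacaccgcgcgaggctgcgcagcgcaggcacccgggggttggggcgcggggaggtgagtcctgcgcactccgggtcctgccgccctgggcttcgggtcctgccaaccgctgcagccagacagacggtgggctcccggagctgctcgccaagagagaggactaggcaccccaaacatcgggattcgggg
Cry1: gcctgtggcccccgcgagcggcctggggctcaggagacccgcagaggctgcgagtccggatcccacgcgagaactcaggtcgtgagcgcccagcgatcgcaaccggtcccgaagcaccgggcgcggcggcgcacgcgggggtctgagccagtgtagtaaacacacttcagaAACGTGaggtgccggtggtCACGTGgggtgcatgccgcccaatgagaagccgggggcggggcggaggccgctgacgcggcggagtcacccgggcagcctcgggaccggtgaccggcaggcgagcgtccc
Per3: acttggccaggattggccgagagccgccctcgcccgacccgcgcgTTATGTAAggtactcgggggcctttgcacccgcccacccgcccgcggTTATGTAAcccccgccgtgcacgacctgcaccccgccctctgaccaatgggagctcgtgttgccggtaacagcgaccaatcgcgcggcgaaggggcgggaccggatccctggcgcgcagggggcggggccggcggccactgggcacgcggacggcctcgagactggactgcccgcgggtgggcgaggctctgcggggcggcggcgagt
The Nr1d1 window held 1 match, to CACGTT read on the other strand, 28 bases before the start site. Cry1 held CACGTG 60 bases before its start site and CACGTT, again on the other strand, 79 bases before it. Per3 held 2 matches to the D-box, 205 and 158 bases before its start site, and Npas2 held no match. Of 32851 promoters of the same length, 7.15% held CACGTG, 4.68% CACGTT and 2.32% TTANGTAA. The search also covered TAGGTCA (2.61% of promoters), TGGGTCA (3.98%), the cAMP response element TGACGTCA (1.79%) and the palindromic glucocorticoid response element (0.00913%), and none of these was in the 4 windows. A match describes the letters of the window and no more.

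Nr1d1 was the 1 gene of 16607 whose night-day difference was called as different between ADX and sham-operated mice (0.00602% of genes tested; edgeR's quasi-likelihood test, Benjamini-Hochberg adjusted p under 0.05). In day sham-operated a, b and c its level was 143, 123 and 129 CPM, and at night it was 22, 25 and 22.7 CPM. ADX libraries had 83.5, 85.9 and 90.9 CPM by day and 51.6, 39.5 and 46.2 CPM at night. The 4 groups did not overlap: ADX lay below sham-operated by day and above it at night, so the night-day gap was narrower from both sides. Night was 5.66-fold lower than day in sham-operated mice (log2 change -2.50, adjusted p = 9.32e-09) and 1.89-fold lower in ADX mice (log2 change -0.92, adjusted p = 0.0328). The interaction was 1.58 on the log2 scale (SE 0.21, adjusted p = 0.0047).

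Between surgeries, Nr1d1 was higher in ADX mice at night (log2 change 0.98, adjusted p = 0.0108), whereas the day difference of -0.60 did not pass (adjusted p = 0.101). The interaction of Nr1d1 passed in 19 of 19 alternative fits, with values from 1.48 to 1.67 and adjusted p up to 0.0356. The fall at night in sham-operated mice passed in 6 of 6 fits without 1 library. The fall in ADX mice passed in 1 of 6 (without night ADX a), with adjusted p up to 0.345 in the others. The surgery difference at night passed in 3 of 6 (adjusted p up to 0.0741). Nr1d1 lies on chromosome 11 from 98767932 to 98775333 on the minus strand (GRCm38). Its 3′ end overlaps the end of Thra, a thyroid hormone receptor gene on the plus strand, over 1075 bases. The library kit keeps strand, but the strand setting of the counting is not given in the sources used here, so reads of this stretch cannot be told apart. The same holds for parts of Dbp, Cry2, Gm19522 and Kcnq1, named further on, which also overlap genes of the opposite strand.

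**Figure D1:**
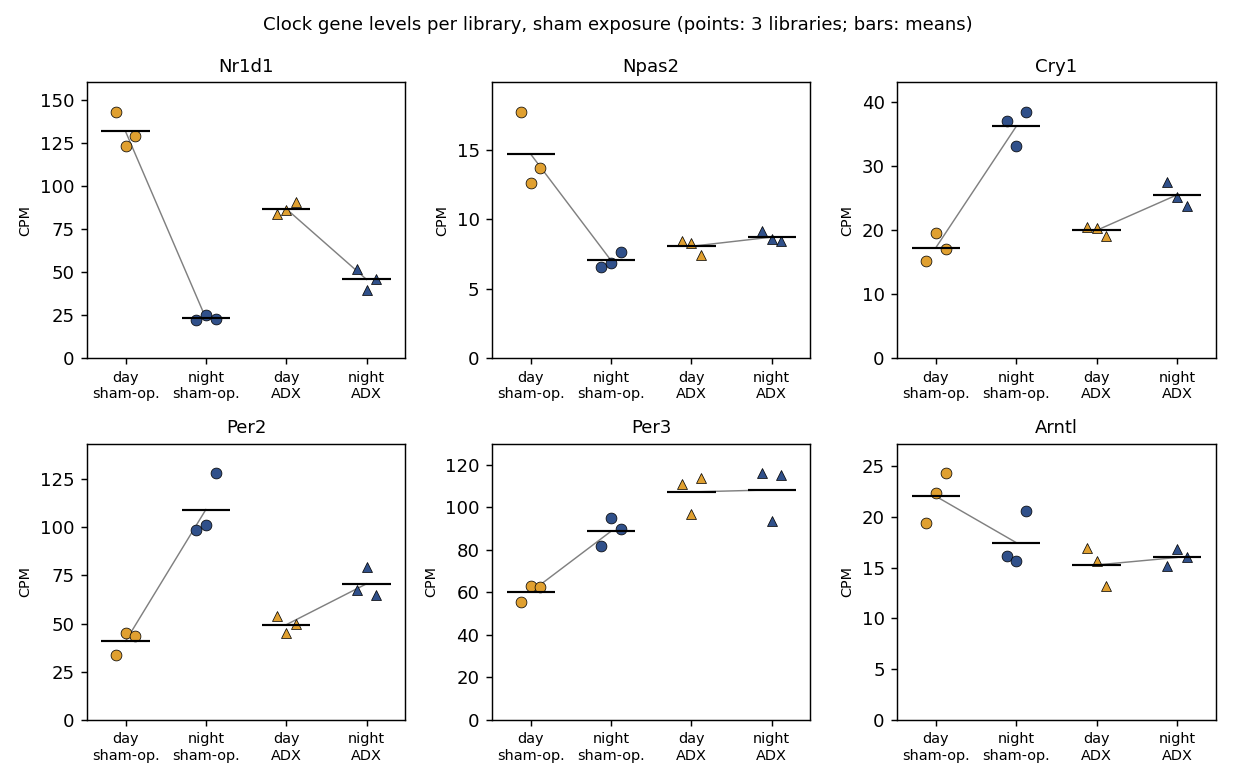
Levels of 6 clock genes in CPM (vertical axes from 0) in each of the 12 sham exposure libraries. Circles are sham-operated and triangles ADX libraries, orange is day and blue night; bars are means of 3 libraries, joined by a line from day to night. Nr1d1 falls from 132 to 23.2 CPM in sham-operated and from 86.8 to 45.8 CPM in ADX mice.

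At an unadjusted p under 0.05 the interaction held 1042 genes (6.27% of those tested), 338 higher (2.04%) and 704 lower (4.24%). Higher means an interaction above 0, that is, a night minus day difference more positive in ADX than in sham-operated mice, and lower means one below 0. Since 0 genes were lower and 1 was higher after adjustment, no interaction value of another gene below passed. Over all genes the median interaction was 0.01 with a median SE of 0.15. This SE rests on 3 libraries a group and on a spread estimated over all 24 libraries. DESeq2 called 11 genes and limma voom with library weights called 96, 10 higher and 86 lower, from the same libraries. The 11 of DESeq2 included Nr1d1, Npas2, Cry1, Tubb3, Slc17a6, Khdrbs3, Wipf3, Map3k9, Bcat1 and Ppp1r1c.

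The night-day difference within each surgery makes up the interaction. In sham-operated mice 44 genes passed (0.265%), 26 higher (0.157%) and 18 lower (0.108%) at night. In ADX mice 3 passed (0.0181%), all lower at night: Nr1d1, Gdf6 (log2 change -0.68, adjusted p = 0.0328), a growth factor of the bone morphogenetic family, and Pla2g2d (-1.40, adjusted p = 0.0433), a secreted phospholipase. At an unadjusted p under 0.05 the counts were 1854 (11.2%) and 1038 (6.25%). The contrast of 44 with 3 depended on the fit. With only the groups compared in the fit both counts were 13: 10 higher and 3 lower in sham-operated mice, 1 higher and 12 lower in ADX mice. DESeq2 gave 220 in sham-operated and 37 in ADX mice, and limma voom 420 and 38. The calls of these tools in ADX mice were mostly higher at night, 28 of 37 and 28 of 38, where edgeR's 3 were lower. The 44 genes included the clock genes Nr1d1, Per2, Cry1, Npas2 and Dbp, and of the 44, 43 had a smaller absolute difference in ADX mice, which their selection in sham-operated mice favours. The count in sham-operated mice moved with each of its 6 libraries. It was 15, 21 and 13 without day a, b and c, and 105, 6 and 8 without night a, b and c. The count in ADX mice was 3 without night a and 0 without any other of its 6 libraries. The 3 without night a were 1 higher and 2 lower at night, so they were not the same 3 genes.

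**Figure D2:**
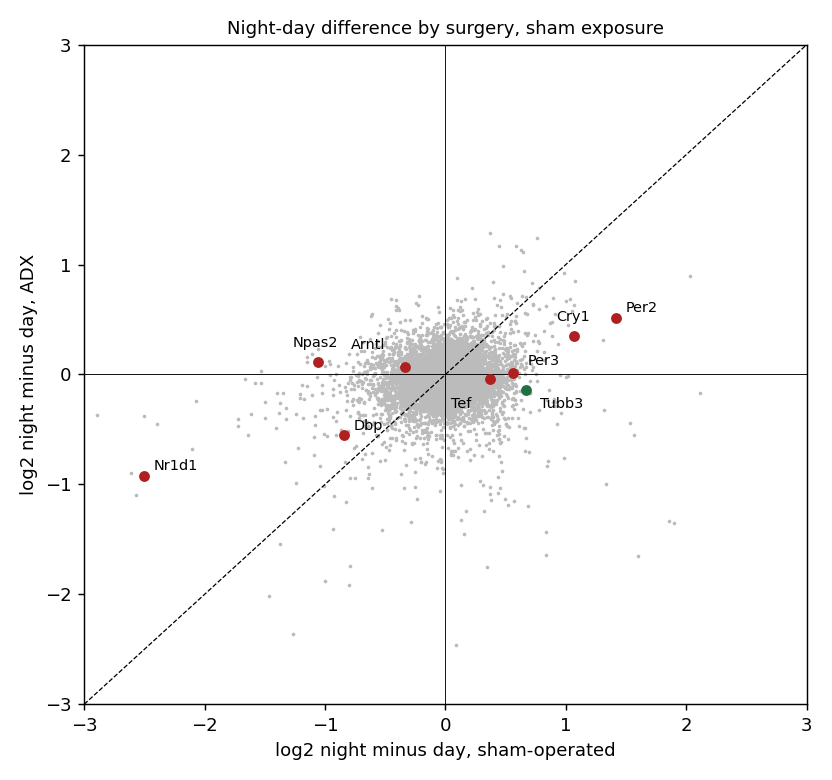
Night minus day difference (log2) in sham-operated mice (horizontal axis) and in ADX mice (vertical axis), for the 15160 genes whose mean log2 CPM was 0 or more; the dashed line marks equal differences. Red points are 8 clock genes and the green point is Tubb3. Nr1d1 lies at -2.50 and -0.92, and Per2 and Cry1 lie right of 1 on the horizontal axis and under 0.6 on the vertical axis.

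Among the activators of the clock loop, Npas2 (chromosome 1, 39193731 to 39363236), a partner of BMAL1, had the smallest interaction p of any clock gene after Nr1d1. Its level was 17.7, 12.6 and 13.7 CPM in day sham-operated libraries and 6.58, 6.84 and 7.67 CPM at night. The ADX values were 8.43, 8.31 and 7.41 CPM by day and 9.18, 8.54 and 8.41 CPM at night. The sham-operated day libraries stood alone above the other 9, which lay within a range of 6.58 to 9.18 CPM. The fall at night in sham-operated mice passed (log2 change -1.06, adjusted p = 0.0114; in 4 of 6 fits without 1 library), and the ADX difference was 0.12 (adjusted p = 0.972). The interaction was 1.18 (SE 0.25, unadjusted p = 1.15e-04, adjusted p = 0.351). Arntl, which encodes BMAL1, had the same sign: 19.4, 22.4 and 24.3 CPM by day against 16.1, 15.7 and 20.6 CPM at night in sham-operated mice, and 16.9, 15.7 and 13.2 against 15.2, 16.8 and 16.0 CPM in ADX mice. Its groups overlapped, and its interaction was 0.41 (SE 0.16, unadjusted p = 0.0217, adjusted p = 0.678). Clock, the alternative partner of BMAL1, had an interaction of -0.03 (unadjusted p = 0.779).

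Among the repressors, Cry1 (chromosome 10, 85131700 to 85185064) was 15.2, 19.6 and 17.1 CPM in day sham-operated libraries and 37.1, 33.1 and 38.5 CPM at night. Its ADX values were 20.6, 20.3 and 19.1 CPM by day and 27.6, 25.2 and 23.8 CPM at night. Night lay above day in both surgeries without overlap, with the wider gap in sham-operated mice. The rise was 2.09-fold in sham-operated mice (log2 change 1.07, adjusted p = 4.25e-05; 6 of 6 fits without 1 library), and the ADX value was 1.28-fold (log2 0.35, adjusted p = 0.59). The interaction was -0.71 (SE 0.16, unadjusted p = 2.59e-04, adjusted p = 0.431).

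Per2 (chromosome 1, 91415982 to 91459324) was 33.9, 45.2 and 43.3 CPM by day and 98.6, 101 and 128 CPM at night in sham-operated mice, and 53.7, 44.9 and 49.5 CPM against 67.6, 79.4 and 64.9 CPM in ADX mice. Night exceeded day in both surgeries, and the ADX night libraries lay below all sham-operated night libraries. Per2 rose 2.67-fold at night in sham-operated mice (adjusted p = 0.0163; in 2 of 6 fits without 1 library), with an interaction of -0.90 (SE 0.34, unadjusted p = 0.0144, adjusted p = 0.619). Per3 was 60.1 ± 4.31 CPM by day and 88.7 ± 6.55 CPM at night in sham-operated mice (SD, n = 3). In ADX mice it was 107 ± 9.19 and 108 ± 12.8 CPM, with both means above the sham-operated night mean. Per3 was 1 of 7 genes (0.0422%) that differed between surgeries by day (log2 change 0.83, adjusted p = 0.0215; in 1 of 6 fits without 1 library), and its interaction was -0.54 (SE 0.19, unadjusted p = 0.00951). Per1, which is also induced by glucocorticoid, had lower ADX means at both times: 77.6 ± 7.10 and 87.4 ± 14.1 CPM in sham-operated, 48.5 ± 2.56 and 53.0 ± 8.34 CPM in ADX mice, with an interaction of -0.05 (SE 0.33, unadjusted p = 0.887).

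Output genes of the clock were mixed. Dbp, a D-box activator, fell at night in sham-operated mice (45.8 ± 2.00 to 25.6 ± 2.61 CPM, adjusted p = 0.0347; in 0 of 6 fits without 1 library) and was 63.6 ± 8.79 and 43.2 ± 7.06 CPM in ADX mice. Its interaction was 0.29 (SE 0.23, unadjusted p = 0.228). Dbp was higher in ADX than in sham-operated mice at night (log2 change 0.76, adjusted p = 0.0267; in 1 of 6 fits without 1 library). Tef, a relative of Dbp, was 160 ± 1.93 and 207 ± 12.2 CPM in sham-operated mice against 213 ± 12.2 and 206 ± 10.1 CPM in ADX mice (interaction -0.42, unadjusted p = 0.00679). Hlf and Nfil3, which act on the same D-box, had interactions of -0.20 and -0.24 (unadjusted p = 0.257 and 0.213). Nr1d2, the closest relative of Nr1d1, did not share its pattern: it was 129 ± 7.10 and 108 ± 9.57 CPM in sham-operated and 142 ± 4.81 and 117 ± 15 CPM in ADX mice, with an interaction of -0.03 (SE 0.17, unadjusted p = 0.861).

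Counted as lists, the 14 clock genes known as high at dusk had 1 gene past the threshold, Nr1d1, which was higher, and 5 more at an unadjusted p under 0.05, all lower (4.24% lower over all genes), among them Per2, Per3, Tef and Cry2 (-0.23, unadjusted p = 0.0393). Their median was -0.13 against 0.01 over all genes. The members did not follow the name of the list as a block, since Nr1d1 and Dbp fell at night while Per2 rose. Of the 6 genes known as high at dawn 0 passed the threshold and 3 were at an unadjusted p under 0.05 (6.27% of all genes in either direction), Npas2 and Arntl higher and Cry1 lower. The absolute night-day difference was smaller in ADX mice for 11 of the 14 and 4 of the 6 (78.6% and 66.7%), beside 54.3% of all genes tested. Both shares lay within those of the other lists, which ran from 15.4% (skeletal muscle markers) to 92.3% (stria vascularis markers). A smaller difference in ADX mice was therefore not particular to the clock lists.

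The same question can be asked of genes chosen in libraries that the interaction did not use. In the noise-exposed libraries, 495 genes were called between night and day on average over the surgeries, 316 higher and 179 lower at night; this set was chosen after the data were seen. Among the sham exposure libraries, 456 of them had the same sign in sham-operated mice and 394 in ADX mice. The absolute difference was smaller in ADX mice for 319 (64.4%), beside 54.3% of all genes, and the median difference along the direction of the noise-exposed libraries was 0.16 in sham-operated and 0.10 in ADX mice. Of the 495, 54 (10.9%) had an unadjusted interaction p under 0.05, beside 6.27% of all genes, and 48 of these were smaller in ADX mice. Among all genes at that level, 727 of 1042 (69.8%) were smaller in ADX mice. The 54.3% of all genes came from the fit to all 24 libraries. It is no baseline for fits that left libraries out. The shares of all genes within those fits are not given here, so the shares below are given without a baseline. The share of 64.4% ran from 57.3% without day ADX a to 69.2% without day sham-operated b or without night sham-operated b. It was 61.9% without the 3 libraries that held pituitary or cerebellar transcripts. After Nr1d1, the genes of this set with the smallest adjusted p in noise-exposed libraries included Rbm3, Gm19522, Cry1 and Fam180a. Rbm3, a cold-inducible RNA-binding protein, was 160 ± 3.64 and 116 ± 9.13 CPM in sham-operated and 154 ± 14.6 and 133 ± 4.92 CPM in ADX mice, with an interaction of 0.26 (SE 0.13, unadjusted p = 0.0653).

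Genes induced by glucocorticoid stood lower in ADX libraries at both times, and their night-day differences were not called as different between the surgeries. Their summed level over 26 genes was 2320 to 2440 CPM by day and 2510 to 2760 CPM at night in sham-operated mice, and 1850 to 2010 CPM by day and 1920 to 2070 CPM at night in ADX mice. Every ADX library lay below every sham-operated library. For the interaction, 0 of 26 passed the threshold in edgeR and 1, Cdkn1a, was at an unadjusted p under 0.05 (0.33, unadjusted p = 0.00854); limma voom put 3 there and DESeq2 2. The median was -0.09, and 19 of the 26 values were negative. In the comparison of ADX with sham-operated mice, 8 of the 26 were lower at night (0.47% of all genes were) and 0 by day, where 15 were lower at an unadjusted p under 0.05 (5.44% of all genes, and 11.3% in either direction). Over all genes 263 (1.58%) passed at night, and by day the 7 given with Per3 (0.0422%). This difference between the times was not called by the interaction for any of the 8.

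Fkbp5, a cochaperone of the glucocorticoid receptor, was 82.6, 72.1 and 57.6 CPM by day and 105, 78.9 and 104 CPM at night in sham-operated mice. Levels in ADX mice were 30.5, 35.5 and 35.4 CPM by day and 27.5, 43.9 and 32.0 CPM at night. The surgeries did not overlap at either time, and day and night overlapped in both. Fkbp5 was lower in ADX mice at night (log2 change -1.48, adjusted p = 0.0267; in 1 of 6 fits without 1 library), with an interaction of -0.42 (SE 0.45, unadjusted p = 0.361). Tsc22d3, which encodes the glucocorticoid-induced leucine zipper protein, was 103 ± 5.36 and 161 ± 18.0 CPM in sham-operated and 80.5 ± 3.48 and 88.6 ± 9.51 CPM in ADX mice, and its interaction of -0.50 (SE 0.26, unadjusted p = 0.0663) did not pass. Hif3a, a hypoxia-inducible factor subunit, was lower in ADX mice at night (7.97 ± 0.95 against 1.47 ± 0.243 CPM, adjusted p = 0.0339; in 0 of 6 fits without 1 library) and was 5.03 ± 1.33 against 1.39 ± 0.167 CPM by day. The 263 calls at night fell to 61 without ADX a, 143 without sham-operated a, 1 (Serinc5) without sham-operated b and 0 without ADX c or sham-operated c, and the 7 by day became 13 without ADX c, 30 without sham-operated b and 0 without any other of the 6 libraries. Without the 3 libraries that held pituitary or cerebellar transcripts, of which day sham-operated b is 1, the day count was 73 and the night count 400.

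Outside the clock, the lowest interaction p-values belonged to genes with negative values. Khdrbs3, an RNA-binding splicing regulator, was 16.6, 18.3 and 18.4 CPM by day and 23, 22.9 and 22.4 CPM at night in sham-operated mice, and 21.0, 20.1 and 19.4 CPM against 19, 18.4 and 18.5 CPM in ADX mice. Night lay above day in sham-operated and below it in ADX mice, without overlap in either. Its rise in sham-operated mice passed (log2 change 0.36, adjusted p = 0.0141; in 3 of 6 fits without 1 library), and its interaction was -0.47 (SE 0.09, unadjusted p = 1.83e-05, adjusted p = 0.152). Wipf3, an actin regulator, and Ppp1r1c, a phosphatase inhibitor, had interactions of -0.79 and -1.03 (unadjusted p = 5.89e-05 and 1.69e-04, adjusted p = 0.245 and 0.351). Wipf3 overlaps genes on the opposite strand. Map3k9, a kinase, and Bcat1, which transaminates branched-chain amino acids, followed at -0.45 and -0.77 (unadjusted p = 1.49e-04 and 1.5e-04, both adjusted p = 0.351).

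Spiral ganglion neurons carry sound signals from hair cells to the brain. Of the 12 markers of these neurons 0 passed the threshold and 7 were at an unadjusted p under 0.05, all lower, beside 4.24% lower over all genes; 11 of the 12 values were negative and their median was -0.57. Tubb3 (chromosome 8, 123411424 to 123422015), a neuronal tubulin, was 79.0, 74.4 and 63.9 CPM by day and 95.5, 127 and 123 CPM at night in sham-operated mice. The levels in ADX mice were 91.8, 105 and 93.4 CPM by day and 96.6, 79.9 and 85.8 CPM at night. Night exceeded day without overlap in sham-operated mice, and the times overlapped in ADX mice. The rise in sham-operated mice passed (log2 change 0.67, adjusted p = 0.0141; in 3 of 6 fits without 1 library), and the interaction was -0.81 (SE 0.16, unadjusted p = 5.26e-05, adjusted p = 0.245). Tubb3 passed without night sham-operated a, which made the count of interaction genes 2.

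The 3 neurofilament genes and Snap25, a protein of synaptic vesicle fusion, had interactions of the same sign as Tubb3. Nefm was 460, 388 and 329 CPM by day and 485, 609 and 568 CPM at night in sham-operated mice, and 436, 515 and 505 CPM against 513, 457 and 423 CPM in ADX mice. The interactions of Nefl, Nefm, Nefh and Snap25 were -0.58, -0.56, -0.44 and -0.60 (unadjusted p = 0.0036, 0.00447, 0.00664 and 0.00221). Nefl and Nefm overlap on opposite strands in the annotation. The glycolytic enzyme Eno2 was at -0.45 (unadjusted p = 0.0108) and the peripheral neurofilament protein Prph at -3.25 (unadjusted p = 0.0161), the latter with levels of 1.73 to 21.8 CPM that overlapped between all groups. The summed level of the 12 markers was 2840, 2540 and 2200 CPM by day and 2990, 3570 and 3520 CPM at night in sham-operated mice. In ADX mice it was 2680, 3090 and 3020 CPM by day and 3090, 2680 and 2610 CPM at night. Night sham-operated a and day ADX a were the lowest of their groups and night ADX a the highest of its group, so the groups overlapped except for day and night of sham-operated mice. In bulk tissue, fewer cells of a type and less RNA per cell cannot be told apart, and the share of nerve tissue in each dissected cochlea was not measured. Of the 12 glia and myelin markers 0 passed and 3 were lower at an unadjusted p under 0.05 (4.24% lower over all genes), with a median of -0.22: Pmp22, Prx and Ncmap at -0.43, -0.46 and -0.75 (unadjusted p = 0.0366, 0.0329 and 0.00188). This count was 5 without night sham-operated a and 1 without day ADX a, night ADX b, or any of day sham-operated b and c and night sham-operated b and c. Hair cell markers had 0 of 14 past the threshold and 2 lower at that level, Slc17a8 and Tmc1 at -0.49 and -0.57 (unadjusted p = 0.0353 and 0.0389), with a median of -0.17; the count ran from 0 to 3 without single libraries and was 1 without day sham-operated b. The part of tissue makeup in the neuronal values was not tested.

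**Figure D3:**
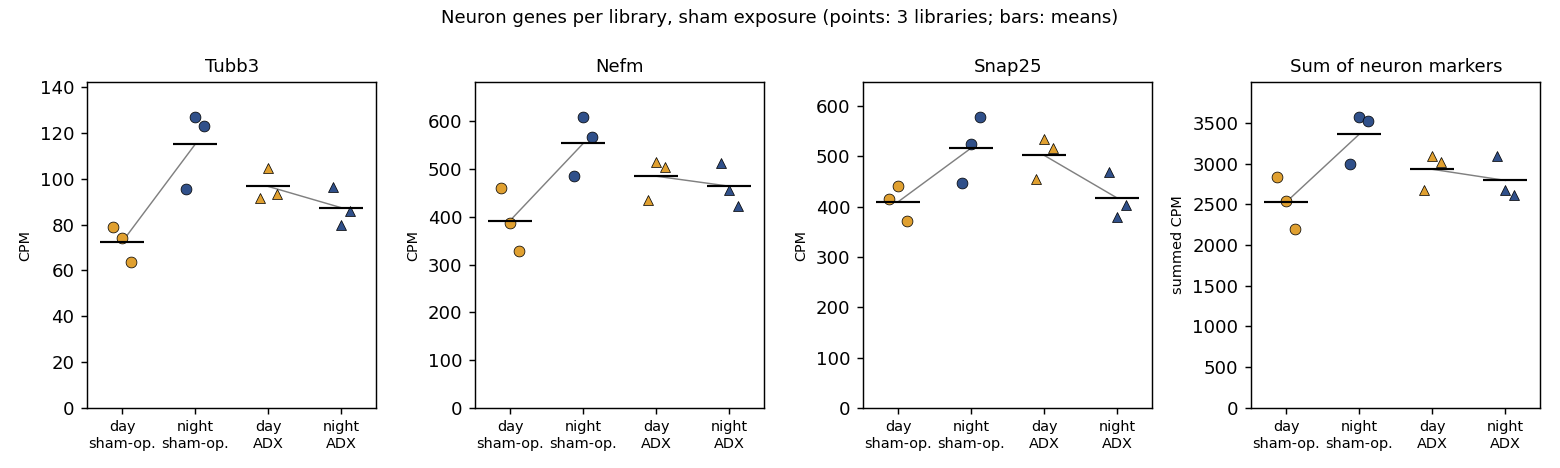
Levels of 3 neuron genes and of the sum of 12 spiral ganglion neuron markers, in CPM from 0, in each of the 12 sham exposure libraries; symbols and bars as for the clock genes. Means rise from day to night in sham-operated mice (Tubb3 from 72.4 to 115 CPM) and not in ADX mice (96.6 to 87.4 CPM), with overlap between libraries in most panels.

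Genes of the interferon response had values above 0 without passing. All 18 interferon-stimulated genes tested had a positive interaction, with a median of 0.48, and 0 passed the threshold. At an unadjusted p under 0.05 there were 6, all higher (2.04% higher over all genes): Oasl2 (1.03, unadjusted p = 0.00712), Usp18 (0.79, unadjusted p = 0.00997), Mx1, Gbp3, Bst2 and Stat2, the last 4 at 0.85, 0.47, 0.45 and 0.24 (unadjusted p = 0.0376, 0.0439, 0.0328 and 0.044). Oasl2, an antiviral synthetase-like protein, was 28.7, 20.9 and 26.6 CPM by day and 18.7, 18.0 and 20.4 CPM at night in sham-operated mice, and 25.1, 34.1 and 28.3 CPM against 29.3, 69.8 and 36.1 CPM in ADX mice. Night ADX b stood apart, here and in the summed level of the list: 830 CPM against 573 and 597 CPM in night ADX a and c, 538 to 611 CPM by day in ADX mice, and 419 to 526 CPM in sham-operated mice. Without night ADX b the count of 6 became 1, and without day ADX a it became 2. It was 11 when the 4 groups were fitted alone.

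In the other lists no gene passed the threshold, and the counts at an unadjusted p under 0.05 stand beside 6.27% over all genes. Among 11 neurotrophins and their receptors 3 were at that level, 1 higher and 2 lower. The higher was Ntf3, a growth factor of spiral ganglion neurons (1.60, unadjusted p = 0.0251). The count was 5 without day sham-operated b, with 1 higher and 4 lower. Among 14 heat-shock genes 1 was at that level: Hspa4l, a chaperone of the HSP110 family, was lower (-0.38, unadjusted p = 0.00996): it rose at night in sham-operated mice (169 ± 20.6 to 244 ± 11.1 CPM, adjusted p = 0.0211; in 2 of 6 fits without 1 library) and was 158 ± 5.22 and 175 ± 11.5 CPM in ADX mice. Of 12 oxidative stress genes 2 were, Srxn1 and Sod2, at -0.32 and -0.20 (unadjusted p = 0.0148 and 0.0272). In the stria vascularis list 2 of 13 tested genes were higher (2.04% higher over all genes), and 12 of the 13 values were positive. Bsnd, a subunit of its chloride channels, was at 0.54 and the potassium channel gene Kcnq1 at 0.27 (unadjusted p = 0.013 and 0.0406). The count of 2 became 5, all higher, without day sham-operated b, 0 without day sham-operated a and 1 without day ADX b or any of night ADX a and c and night sham-operated a and c. Immediate early genes (0 of 21), chemokines and cytokines (0 of 17), extracellular matrix genes (0 of 17), cell cycle genes (0 of 14), endothelial (0 of 10), neutrophil and myeloid (0 of 13), lymphoid (0 of 14) and erythroid markers (0 of 9) had none at that level.

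**Figure D4:**
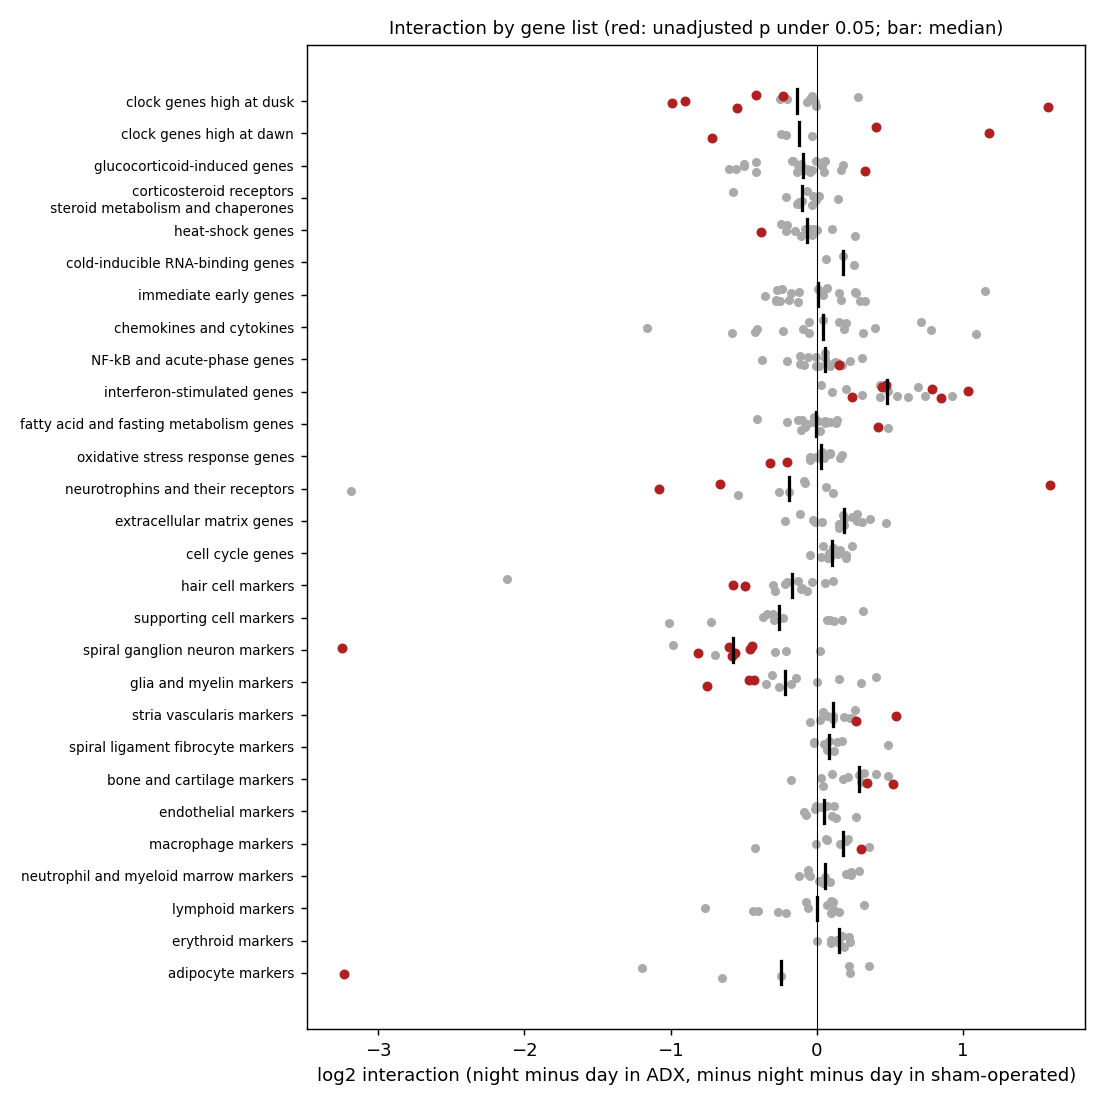
Interaction (log2, horizontal axis) of each tested gene in 28 gene lists; red points have an unadjusted p under 0.05, grey points do not, and the black bar is the list's median. Medians lie between -0.57 (spiral ganglion neuron markers) and 0.48 (interferon-stimulated genes), and Nr1d1 at 1.58 is the 1 gene past the adjusted threshold; muscle, pituitary and cerebellar genes are not drawn.

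Among genes with higher interaction values, the rule took Gstm4, Lgals3bp, Thra and Tle2 after Nr1d1 and Npas2. Gstm4, a glutathione transferase, was 10.3 ± 1.02 and 6.54 ± 0.61 CPM in sham-operated mice and 8.76 ± 0.843 and 8.97 ± 0.837 CPM in ADX mice (interaction 0.69, unadjusted p = 6.52e-04). Thra was 105 ± 7.34 and 80.7 ± 2.62 CPM in sham-operated mice and 94.1 ± 0.796 and 94.9 ± 4.22 CPM in ADX mice (0.40, unadjusted p = 7.34e-04), with the overlap with Nr1d1 given above. Lgals3bp, a secreted galectin-binding glycoprotein, was at 0.49 (unadjusted p = 6.98e-04), and Tle2, a transcriptional corepressor, at 0.34 (unadjusted p = 8.4e-04). Skeletal muscle genes had 13 of 13 negative values (median -1.12) with 0 at an unadjusted p under 0.05, beside 6.27% over all genes. Of 12 cerebellar genes 0 passed and 3 were higher at an unadjusted p under 0.05 (2.04% higher over all genes), with a median of 0.91. Without day sham-operated b, which stood above its group in these genes, the count was 1 and the median 0.10; without other single libraries the count ran from 0 to 6.

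The noise-exposed libraries gave the same contrast in 12 further libraries. The test of the difference between the interactions had 0 genes past the threshold (0%), as did the interaction in noise-exposed libraries itself (0%). At an unadjusted p under 0.05 these held 2162 genes (13%) and 2407 genes (14.5%). DESeq2 called 197 and 38, and limma voom 575 and 0. Single libraries moved these counts: the noise interaction was 600 without day noise ADX a and 287 without night noise ADX a, and the difference was 554 without day noise ADX a, 124 without night sham-operated a of sham exposure and 1 (Nr1d1) without night noise ADX c.

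Nr1d1 was 132, 134 and 106 CPM by day and 34.3, 41.0 and 41.0 CPM at night in noise-exposed sham-operated mice, and 146, 137 and 124 CPM against 29.2, 44.7 and 52.9 CPM in noise-exposed ADX mice. The surgeries overlapped at both times, and the interaction was -0.002 (SE 0.21). The difference between the interactions was -1.58 (SE 0.30, unadjusted p = 2.87e-05, adjusted p = 0.128). Npas2, Arntl and Per2 had interactions of the same sign under noise (0.88, 0.52 and -0.80; unadjusted p = 0.00245, 0.00426 and 0.0274). Cry1 was at -0.19 (SE 0.16). The neuronal genes had the opposite sign: Nefl, Nefm, Nefh and Snap25 were at 0.50, 0.54, 0.49 and 0.48 under noise, and their differences from sham exposure ran from 0.93 to 1.11 (adjusted p = 0.128 each). None of these differences passed.

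**Figure D5:**
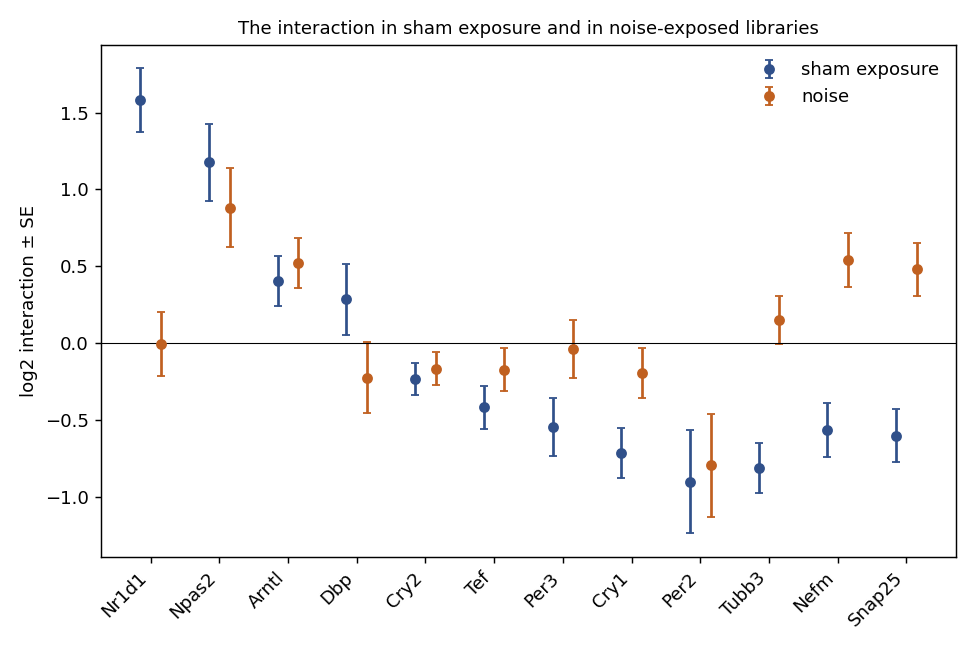
The interaction (log2, vertical axis) of 9 clock genes and 3 neuron genes in sham exposure libraries (blue) and in noise-exposed libraries (orange), with bars of 1 SE from the fit to 24 libraries. Nr1d1 is at 1.58 and -0.002, Npas2 is above 0 in both, and the 3 neuron genes are below 0 in sham exposure and above 0 under noise.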

How the data were processed

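Messenger RNA of whole mouse cochlea was counted in 24 libraries. Per the labels' protocols, they were made from 300 ng of RNA with a stranded poly-A kit, pooled by 6 and read as single 50-base reads. The authors deposited raw counts of reads per gene symbol, and the submitters' processing notes name TopHat2 2.0.11, HTSeq 0.6p1 and mm10. The gene annotation and the strand setting of the counting are not given in the sources used here. Of 23420 entries, 3340 had no count, and 27 with names turned into dates (0.214% of counts) stayed unidentified.

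The tests used edgeR 4.0.16 in R 4.3.3: filterByExpr, TMM factors, 1 coefficient per group in all 24 libraries and robust two-sided quasi-likelihood tests, with Benjamini-Hochberg adjustment over 16607 genes called at 0.05. The biological coefficient of variation common to all genes was 0.0991. Each SE is the absolute log2 value divided by the square root of the F statistic of the quasi-likelihood test. CPM were scaled with the TMM factors, and log2 CPM used a prior count of 2. The procedure was tested on simulated data. Positions came from GENCODE vM21 (GRCm38) by symbol, for 21751 entries.

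The comparison, the 31 gene lists (407 genes, 392 tested) and the rule for named genes were chosen with earlier results of these data known. The rule takes 6 genes per direction with the smallest interaction p and a mean log2 CPM of 0 or more, list members past the threshold, 2 members of each process list with the smallest p, and 18 fixed clock, glucocorticoid and stress genes. Other list members named at an unadjusted p, and genes of the comparisons within the interaction, were chosen after their values were seen. Lists were counted, not tested, and their counts under the alternatives were added after the data were seen.

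Alternatives were RLE factors, no filter, a replicate block by letter, a fit restricted to the compared groups, leaving out 3 libraries together because earlier work had found transcripts of pituitary or cerebellum in them (night noise ADX a, night noise sham-operated b and, of the 12 here, day sham exposure sham-operated b), the Wald test of DESeq2 1.42.0, voom with library weights of limma 3.58.1, and leaving out each library. The 12 pairs of libraries within the 4 groups differed by a chi-square per gene of 6.10 to 17.3, over genes whose summed count reached 20, so no library repeated another. Some genes are not reported here.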

Additional observations from a re-analysis of the deposited data

Results flagged for a closer look

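The night minus day difference of Nr1d1 differed between ADX and sham-operated mice by the interaction test itself, by 1.58 on the log2 scale. Nr1d1 overlaps Thra on the opposite strand over 1075 bases, and Thra had an interaction of the same sign (0.40, adjusted p = 0.515 by edgeR's quasi-likelihood test). The part of this overlap in the value was not tested.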

How the results depend on the processing

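The interaction of Nr1d1 kept its sign and its call in 19 of 19 alternatives, and the other counts moved as follows; the cause was not tested. For the interaction, the count of 1 gene became 2 in a fit of only the groups compared, 11 by DESeq2 and 96 by limma voom, and ran from 1 to 2 without single libraries. Night minus day in ADX mice (3 genes) became 13, 37 and 38 in the fit of only the groups, DESeq2 and voom, and ran from 0 to 3 without single libraries. Night minus day in sham-operated mice (44) became 13, 220 and 420 and ran from 6 to 105. ADX minus sham-operated by day (7) became 88, 179 and 128, was 73 without the 3 libraries and ran from 0 to 30. At night (263) it became 599 by DESeq2 and 1262 by voom, was 400 without the 3 libraries and ran from 0 to 196. The noise interaction (0) was 11 without the 3 libraries and 38 by DESeq2 and ran from 0 to 600. The difference between the interactions (0) was 197 by DESeq2 and 575 by voom and ran from 0 to 554; a fit of only its groups is the main fit.

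Libraries of the same letter did not deviate together over all genes (18 pairs, correlations of -0.264 to 0.0999). This check showed no pairing by letter, but with 3 libraries a group it cannot establish that there was none. A replicate block by letter left the interaction at 1 gene and took night minus day in sham-operated mice to 22; Nr1d1 in ADX mice then had an adjusted p of 0.0635.

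A few values near 0 changed sign. Zbtb16 (0.05) was -0.029 with the replicate block and -0.183 by voom, and ran from -0.386 to 0.241 over all 19 alternatives. Per1 (-0.05) was 0.024 without the 3 libraries and ran from -0.184 to 0.081 over all 19 alternatives. Over the same 19, Nr1d2 ran from -0.133 to 0.056, Nr3c1 from -0.074 to 0.055 and Bdnf from -0.36 to 0.01. RLE factors moved no list's median by more than 0.007.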

Other observations

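Lymphoid markers summed to a higher level in ADX than in sham-operated mice at both times. The summed level of the 14 lymphoid markers was 521 to 744 CPM by day and 593 to 657 CPM at night in sham-operated mice, and 944 to 1120 CPM by day and 898 to 1150 CPM at night in ADX mice. Every ADX library lay above every sham-operated library. Of the 14, 8 passed between surgeries at night (7 higher and 1, Cd3e, lower; 1.58% of all genes passed) and 0 by day, where 13 were at an unadjusted p under 0.05, 11 higher and 2 lower (11.3% of all genes). Without single libraries the night calls over all genes fell to 0 in some fits, as given above. For the interaction 0 of 14 passed and 0 were at an unadjusted p under 0.05 (6.27% of all genes), with a median of 0.004, which does not show that the night-day differences were alike. Rag1, a recombinase of developing lymphocytes, was 65.2 ± 16.4 and 52.3 ± 4.42 CPM in sham-operated and 121 ± 9.70 and 121 ± 28.3 CPM in ADX mice, with an interaction of 0.32 (unadjusted p = 0.245). Its difference at night passed in edgeR's quasi-likelihood test (log2 change 1.21, adjusted p = 0.0108), in 3 of 6 fits without 1 library.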
